A study of Homo sapiens with 18 samples.

Results

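The RNA of 10 genes that set whether mitochondria join or divide was followed in HAP1 cells: MFN1, MFN2, OPA1, DNM1L, FIS1, MFF, MIEF1, MIEF2, MTFP1 and GDAP1. They were taken by gene symbol, as members of the fission and fusion machinery, and all 10 were found among the 59251 genes counted. Fusion proceeds membrane by membrane. The mitofusins MFN1 and MFN2, large GTPases of the outer membrane, tether and join the outer membranes of neighbouring organelles. OPA1, a dynamin-like GTPase of the inner membrane that also shapes the cristae, then joins the inner membranes. Division is carried out by DNM1L (also called DRP1), a cytosolic GTPase that assembles into constricting rings once outer membrane adaptors (MFF, MIEF1, MIEF2 and, to a lesser degree in mammals, FIS1) have recruited it. MTFP1 is an inner membrane protein linked to division, and GDAP1 is an outer membrane protein, best known from nerve cells, whose mutation causes Charcot-Marie-Tooth neuropathy. Much of the control of this machinery acts on the proteins, by cleavage of OPA1 and by modification of DNM1L and the mitofusins, and RNA counts do not measure it.

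HAP1 is a near-haploid human cell line that traces back to a chronic myeloid leukaemia. The series asks how expression changes once SARS2, the enzyme that loads serine onto mitochondrial transfer RNAs, is depleted. In one line, labelled delSARS2+SARS2-1xFLAG and called the SARS2 line here, the SARS2 gene was deleted and a FLAG-tagged SARS2 transgene was supplied. Its 12 libraries form 4 groups of 3: doxycycline (15 ng/mL), and 3, 6 or 9 days without doxycycline. The unmodified parental line gave 3 libraries without doxycycline, for a time the labels do not give, and 3 with 15 ng/mL doxycycline. Not given in the sources used here are the promoter of the transgene, the kind of deletion and whether the SARS2 line is 1 clone. The labels do not tell whether the 3 replicates of a group were grown apart, so a p-value covers the spread among these samples alone, and that spread may be technical.

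Libraries held 66850705 to 111123481 counts. Levels are given as CPM, counts scaled to the TMM-adjusted library size, with mean ± SD over n = 3. In the SARS2 line, mean SARS2 levels were not lower in the groups labelled without doxycycline than in the group with it. SARS2 averaged 24.2 ± 0.923 CPM with doxycycline and 31.6 ± 0.986 in libraries labelled day 3. It averaged 24.7 ± 1.30 in those labelled day 6 and 41.8 ± 7.16 in those labelled day 9. By edgeR's test against doxycycline, SARS2 rose at labelled day 3 (log2 fold change 0.38 ± 0.10, adjusted p = 0.014) and day 9 (0.79 ± 0.10, adjusted p = 2.7e-06). It did not pass the test at labelled day 6 (0.03 ± 0.10, adjusted p = 0.86). Parental SARS2 averaged 39.9 ± 3.04 CPM without doxycycline and 44.3 ± 1.67 with it. With doxycycline in both, SARS2 was lower in the SARS2 line than in the parental line (−0.87 ± 0.10, adjusted p = 3.5e-06). The counts do not separate the transgene from what may remain of the deleted locus. The 3 groups are therefore called by their labels throughout, and directions drawn from them rest on those labels. NEAT1, a nuclear noncoding RNA of paraspeckles that is retained in the nucleus, averaged 6.86 ± 0.313 CPM with doxycycline, 5.03 ± 0.638 labelled day 3, 16.3 ± 2.84 labelled day 6 and 2.90 ± 1.01 labelled day 9. Parental NEAT1 averaged 14.6 ± 1.83 CPM without doxycycline and 3.94 ± 0.300 with it. Markers of blood cells (6 genes) summed to 0.0109 to 0.821 CPM per library, with GATA1 and HBG1 at 0 in all 18. Of the other marker lists, 5 epithelial genes summed to 26.9 to 63.1 CPM, nearly all KRT18, with CDH1 and KRT19 at no more than 0.0292 CPM. Another 6 mesenchymal genes summed to 433 to 1036 CPM, nearly all VIM, with COL1A2 at no more than 0.0216 CPM.

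The start regions of 4 of the genes are shown first because their RNAs parted in opposite directions in the libraries labelled day 9: MFN1 and OPA1 fell and MFN2 and MIEF1 rose. Each run is the plus strand from 250 bases before to 50 bases after a RefSeq start (GRCh38.p14), and the start is position 0. Capitals mark matches to a searched motif other than CCAAT.
MFN1, chr3:179347459-179347758: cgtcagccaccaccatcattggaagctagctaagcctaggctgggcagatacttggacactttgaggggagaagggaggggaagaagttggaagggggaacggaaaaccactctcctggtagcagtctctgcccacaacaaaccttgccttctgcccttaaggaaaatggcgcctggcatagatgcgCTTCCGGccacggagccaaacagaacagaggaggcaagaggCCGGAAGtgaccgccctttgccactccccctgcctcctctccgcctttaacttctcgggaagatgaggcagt
OPA1, chr3:193592958-193593257: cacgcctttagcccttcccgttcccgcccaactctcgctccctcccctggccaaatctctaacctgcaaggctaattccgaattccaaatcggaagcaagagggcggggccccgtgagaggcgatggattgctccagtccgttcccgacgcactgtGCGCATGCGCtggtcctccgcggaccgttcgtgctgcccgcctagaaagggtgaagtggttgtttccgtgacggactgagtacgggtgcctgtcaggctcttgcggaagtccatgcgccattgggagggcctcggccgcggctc
MFN2, chr1:11980194-11980493: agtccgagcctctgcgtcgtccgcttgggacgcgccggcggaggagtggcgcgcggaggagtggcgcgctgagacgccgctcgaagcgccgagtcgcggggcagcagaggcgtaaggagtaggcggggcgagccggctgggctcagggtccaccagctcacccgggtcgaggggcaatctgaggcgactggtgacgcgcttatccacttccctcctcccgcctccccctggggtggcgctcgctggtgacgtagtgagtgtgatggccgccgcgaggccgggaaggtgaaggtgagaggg
MIEF1, chr22:39502040-39502339: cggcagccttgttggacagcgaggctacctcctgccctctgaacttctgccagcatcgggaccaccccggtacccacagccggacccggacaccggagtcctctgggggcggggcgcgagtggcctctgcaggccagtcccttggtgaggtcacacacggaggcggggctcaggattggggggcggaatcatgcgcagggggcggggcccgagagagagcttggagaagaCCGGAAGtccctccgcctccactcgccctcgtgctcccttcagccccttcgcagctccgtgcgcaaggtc
The capitals in the MFN1 region are 2 matches to CCGGAAG, the core bound by ETS factors, at positions −63 (on the opposite strand) and −22. MIEF1 holds the same core at −20. Among the other genes searched, FIS1, whose region is not printed, holds that core too, at −9. The MIEF1 region lies inside the annotated gene (22:39500100-39518132), at a RefSeq start that is not the gene's outermost. OPA1 holds GCATGCGC, the motif of nuclear respiratory factor NRF1, at −94 on the opposite strand and −92 on the printed strand, as overlapping matches of a nearly palindromic run. The MFN2 region holds none of these, and its GC content was 71.3%, against a median of 58.7% over all 34796 regions. Across those regions CCGGAAG was present in 10.2% and GCATGCGC in 3.00%. TGATGNAA (present in 3.63%), TGACGTCA (1.84%), AAGATGGC (2.89%) and CACGTG (7.21%) were searched on both strands as well and had no match in any region of the 9 genes searched (all but GDAP1). A core of 5 letters, CCAAT, present in 34.6% of all regions, matched in regions of MFN1, OPA1, DNM1L, MFF, MIEF1 and MIEF2. These matches describe the letters only.

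All 10 genes were expressed in every library, and each passed the filter on low counts. Counts per gene and library ran between 597 (GDAP1) and 23155 (MFN2). In some groups the replicates lay about as close as counting error alone would put them. MIEF2 labelled day 6, for example, was 12.96 ± 0.2017 CPM on 1101, 1165 and 1315 counts. Per kilobase of annotated exon, FIS1 had the highest level (mean over all libraries 88.7 CPM per kb), followed by MFF at 61.3, DNM1L at 35.4, MFN2 at 34.7, MTFP1 at 32.6, OPA1 at 27.2 and MIEF1 at 17.2 CPM per kb. MFN1 stood at 11.6, GDAP1 at 5.21 and MIEF2 at 3.04 CPM per kb, the lowest of the 10. Exon overlap with other genes was small. Of the 10, only OPA1 overlapped other annotated exons, those of LOC102724808 (130 bases) and OPA1-AS1 (42 bases) on the opposite strand. These held at most 0 and 6 counts in any library. MIEF2 was also annotated on 1 sequence outside the primary chromosomes, with 7514 exonic bases listed in all and 4226 on chromosome 17. Its level per kb used the 4226 bases, and how reads matching both copies were counted was not tested. The pseudogenes MFN1P1 and MFFP2 held at most 6 counts each. How far the groups differed varied between the genes. On the log2 CPM scale the group means of GDAP1 spanned 2.38, a wider range than 92.5% of the genes tested, and those of MTFP1 spanned 1.14. The other 8 spanned 0.26 (MIEF2) to 0.57 (MFN1).

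**Figure D1:**
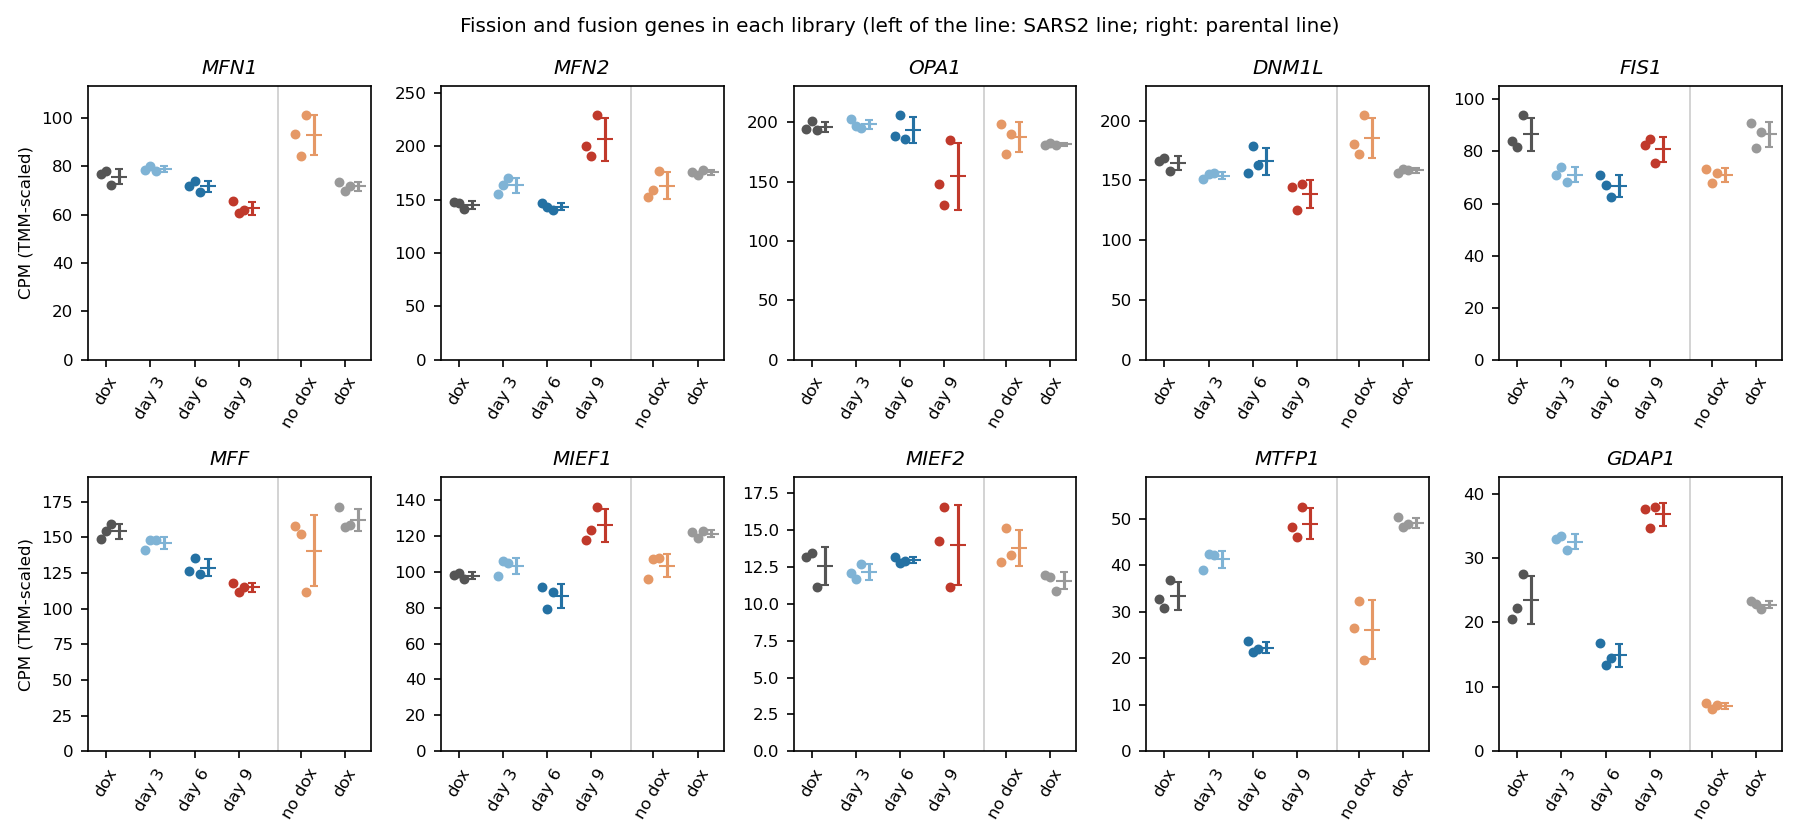
Level of each of the 10 genes in CPM in each library (dots) with mean ± SD (bars, n = 3), one panel per gene. Left of the line is the SARS2 line with doxycycline and labelled days 3, 6 and 9, and right of it the parental line without and with doxycycline. GDAP1 and MTFP1 are low in the libraries labelled day 6 and in parental cells without doxycycline, and MFN2 is highest in the libraries labelled day 9.

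In the libraries labelled day 3, 1 of the 10 genes rose (GDAP1) and 1 fell (FIS1), relative to the SARS2 line with doxycycline. The test was edgeR's quasi-likelihood test fitted to all genes, called at a Benjamini-Hochberg adjusted p under 0.05. Of all 21615 genes tested, 13.4% were called in this comparison. In the libraries labelled day 6, 4 fell (GDAP1, MTFP1, FIS1 and MFF) and none of the 10 rose, where 28.1% of all genes were called. In the libraries labelled day 9, 4 rose (MFN2, MIEF1, MTFP1 and GDAP1) and 4 fell (MFN1, OPA1, DNM1L and MFF), where 46.4% of all genes were called. In the parental line without doxycycline, 2 rose (MFN1 and DNM1L) and 4 fell (GDAP1, MTFP1, FIS1 and MIEF1), where 39.4% of all genes were called. Median log2 changes of the 10 were 0.04, −0.13 and 0.03 at labelled days 3, 6 and 9 and −0.16 in the parental line; over all genes they were −0.00, 0.01, −0.01 and 0.03. The groups labelled day 3, 6 and 9 were all set against the same 3 doxycycline libraries.

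**Figure D2:**
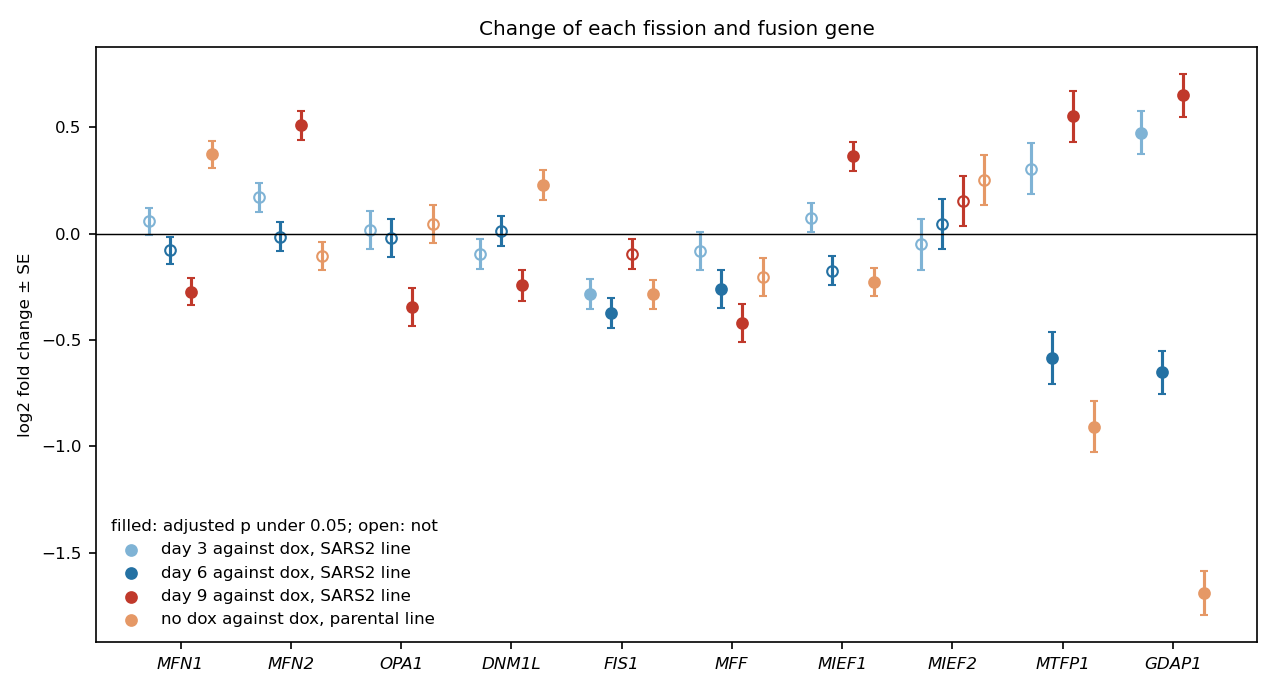
Log2 fold change ± SE (edgeR) of the 10 genes in libraries labelled day 3, 6 and 9 against the SARS2 line with doxycycline, and in the parental line without against with doxycycline; filled points have an adjusted p under 0.05. MFN2 and MIEF1 lie above 0 and MFN1, OPA1, DNM1L and MFF below it at day 9, and GDAP1 has the largest change of the 10 in the parental line.

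MFN2, the mitofusin that also tethers mitochondria to the endoplasmic reticulum, was the only one of MFN1, MFN2 and OPA1 that rose in the SARS2 line at labelled day 9. Its gene spans 1:11980444-12013508 on the plus strand of GRCh38. In the SARS2 line MFN2 stood at 148, 147 and 141 CPM with doxycycline, 156, 164 and 170.1 labelled day 3, 147, 143 and 141 labelled day 6 and 199.8, 191 and 229 labelled day 9. All 3 libraries labelled day 9 lay above all 15 others. MFN2 did not pass the test at labelled day 3 (log2 fold change 0.17 ± 0.07, adjusted p = 0.10) or day 6 (−0.02 ± 0.07, adjusted p = 0.89), and rose at day 9 (0.51 ± 0.07, adjusted p = 6.2e-06). Parental MFN2 was 153, 159 and 177 CPM without doxycycline and 175, 173 and 178 with it, and these overlapped (−0.11 ± 0.07, adjusted p = 0.23). With doxycycline in both, MFN2 was lower in the SARS2 line than in the parental line (−0.27 ± 0.07, adjusted p = 0.0075).

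MFN1, the more GTP-active mitofusin, went the other way. It lies at 3:179347709-179394936 (plus strand) and stood at 76.8, 78.1 and 72.3 CPM with doxycycline, 78.6, 80.1 and 77.9 labelled day 3, 71.9, 73.8 and 69.3 labelled day 6 and 65.6, 60.5 and 61.8 labelled day 9. The libraries labelled day 9 were the 3 lowest of all 18. Against doxycycline, MFN1 did not pass the test at labelled day 3 (0.06 ± 0.06, adjusted p = 0.60) or day 6 (−0.08 ± 0.06, adjusted p = 0.38), and fell at day 9 (−0.27 ± 0.06, adjusted p = 0.0016). Parental MFN1 was 93.3, 84.2 and 101 CPM without doxycycline, above every other library, against 73.6, 69.9 and 71.7 with it, a rise (0.37 ± 0.06, adjusted p = 0.00015). The per-kilobase ratio of MFN2 to MFN1 was 2.61 ± 0.0508 with doxycycline, 2.82 ± 0.142 labelled day 3, 2.73 ± 0.0742 labelled day 6 and 4.49 ± 0.483 labelled day 9. The parental ratio was 2.39 ± 0.174 without doxycycline and 3.33 ± 0.0749 with it (SD, n = 3 each).

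OPA1, the inner membrane fusion GTPase (3:193593208-193697811, plus strand), stood at 194, 201 and 193 CPM with doxycycline, 202, 197 and 195 labelled day 3, 189, 206 and 186 labelled day 6 and 148, 129.9 and 185 labelled day 9. All 3 libraries labelled day 9 were below those with doxycycline, with replicate 3 close to them. OPA1 did not pass the test at labelled day 3 (0.01, adjusted p = 0.94) or day 6 (−0.02, adjusted p = 0.89), and fell at day 9 (−0.34 ± 0.09, adjusted p = 0.0035). Parental OPA1 was 199, 173 and 189.7 CPM without doxycycline and 181, 183 and 181 with it, and did not pass the test (0.05, adjusted p = 0.71). Across all groups, the ranges of neighbours in the order of OPA1 means overlapped. OPA1 is a long gene, and changes depended weakly on gene length: Spearman's rho between gene span and log2 change, across 21591 genes, was −0.06, 0.18 and −0.14 at labelled days 3, 6 and 9 and 0.14 in the parental line. With the trend on length and span removed, the OPA1 change at labelled day 9 was −0.23 and still passed the test.

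DNM1L, the fission GTPase (12:32679301-32745650, plus strand), stood at 167, 169 and 158 CPM with doxycycline, 151, 155 and 156 labelled day 3, 156, 179 and 163 labelled day 6 and 145, 126 and 147 labelled day 9. It did not pass the test at labelled day 3 (−0.09, adjusted p = 0.41) or day 6 (0.01, adjusted p = 0.91), and fell at day 9 (−0.24 ± 0.07, adjusted p = 0.0085). Without replicate 2 labelled day 9 the day 9 change was −0.18 and no longer passed. Parental DNM1L was 181, 172 and 204 CPM without doxycycline and 156, 159.9 and 159 with it, a rise (0.23 ± 0.07, adjusted p = 0.015) between groups that did not overlap. It no longer passed when replicate 3 without doxycycline was left out (0.15) and with the length trend removed (0.16).

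The adaptors that recruit DNM1L did not move as a unit. MFF, the main one (2:227325251-227357836, plus strand), stood at 149, 154 and 159.8 CPM with doxycycline, 141, 149 and 148 labelled day 3, 127, 136 and 124 labelled day 6 and 118, 112 and 116 labelled day 9, and the 4 groups did not overlap, though doxycycline and labelled day 3 nearly touched. Its fall passed the test at labelled day 6 (−0.26 ± 0.09, adjusted p = 0.034) and day 9 (−0.42 ± 0.09, adjusted p = 0.00070). At labelled day 6 MFF no longer passed without any 1 of 4 libraries (replicate 2 or 3 with doxycycline, replicate 1 or 3 labelled day 6; −0.24 to −0.27), with library sizes alone (−0.20) and with the length trend removed (−0.23). Parental MFF was 158, 152 and 112 CPM without doxycycline and 172, 157 and 159 with it. Replicate 3 without doxycycline stood well below its group, and the change did not pass the test (−0.21 ± 0.09, adjusted p = 0.075). It passed without replicate 1 (−0.31) or replicate 2 (−0.28) of that group.

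MIEF1 (also called MiD51, 22:39500100-39518132, plus strand) stood at 98.2, 99.3 and 95.8 CPM with doxycycline, 97.8, 106 and 105 labelled day 3, 91.7, 79.2 and 88.97 labelled day 6 and 118, 123 and 136 labelled day 9. The libraries labelled day 6 were the 3 lowest in the SARS2 line and those labelled day 9 the 3 highest. At labelled day 3 (0.07, adjusted p = 0.52) and day 6 (−0.18 ± 0.07, adjusted p = 0.061) MIEF1 did not pass the test, and at day 9 it rose (0.36 ± 0.07, adjusted p = 0.00023). The day 6 change passed without replicate 1 labelled day 6 (−0.22), with the length trend removed (−0.22) and with only the compared groups in the model (−0.18). Parental MIEF1 fell without doxycycline, to 95.9, 107 and 108 CPM, against 122, 119 and 123 with it (−0.23 ± 0.07, adjusted p = 0.012). It was also lower in the SARS2 line than in the parental line, both with doxycycline (−0.31 ± 0.07, adjusted p = 0.0033).

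Its relative MIEF2 (MiD49, 17:18260662-18266552, plus strand) varied least. Levels were 13.2, 13.4 and 11.1 CPM with doxycycline, 12.1, 11.7 and 12.7 labelled day 3, 13.2, 12.8 and 12.9 labelled day 6 and 14.3, 16.6 and 11.1 labelled day 9. The parental libraries held 12.8, 15.1 and 13.3 CPM without doxycycline and 11.96, 11.8 and 10.9 with it. No comparison called MIEF2, and the log2 change at labelled day 9 was 0.15 ± 0.12, adjusted p = 0.31. Without replicate 3 labelled day 9, the lowest of its group, that change was 0.29 and passed the test.

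FIS1, a small tail-anchored outer membrane protein (7:101239472-101245081, minus strand), stood at 83.9, 81.8 and 93.8 CPM with doxycycline, 70.8, 74.1 and 68.4 labelled day 3, 70.9, 66.9 and 62.6 labelled day 6 and 82.6, 84.6 and 75.4 labelled day 9. All libraries labelled day 3 or 6 lay below all with doxycycline, and those labelled day 9 overlapped them. FIS1 fell at labelled day 3 (−0.28 ± 0.07, adjusted p = 0.012) and day 6 (−0.37 ± 0.07, adjusted p = 0.00065), and not at day 9 (−0.10 ± 0.07, adjusted p = 0.27). At labelled day 3 it no longer passed without replicate 3 with doxycycline (−0.22) or replicate 3 labelled day 3 (−0.26). With the length trend removed the day 6 change was −0.25 and still passed. Parental FIS1 was 73.2, 68.03 and 71.9 CPM without doxycycline and 90.9, 81.4 and 87.6 with it, also a fall (−0.29 ± 0.07, adjusted p = 0.0030).

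MTFP1, the inner membrane protein also called MTP18 (22:30425768-30429054, plus strand), stood at 32.8, 30.8 and 36.8 CPM with doxycycline, 39.1, 42.5 and 42.3 labelled day 3, 23.6, 21.3 and 21.9 labelled day 6 and 48.2, 46.1 and 52.6 labelled day 9. The 4 groups did not overlap. At labelled day 3 MTFP1 missed the threshold (0.30 ± 0.12, adjusted p = 0.097), which it passed with no filter on low counts (0.31), with the length trend removed (0.32) and with only the compared groups in the model (0.31). MTFP1 fell at labelled day 6 (−0.59 ± 0.12, adjusted p = 0.0013) and rose at day 9 (0.55 ± 0.12, adjusted p = 0.00086). Parental MTFP1 fell without doxycycline, to 26.4, 32.4 and 19.8 CPM, against 50.3, 48.2 and 48.9 with it (−0.91 ± 0.12, adjusted p = 1.3e-05). The SARS2 line was lower than the parental line when both had doxycycline (−0.56 ± 0.12, adjusted p = 0.0028).

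GDAP1 changed most among the 10. Its gene lies at 8:74350403-74488872 on the plus strand. Levels were 20.5, 22.3 and 27.6 CPM with doxycycline, 32.9, 33.5 and 31.2 labelled day 3, 16.8, 13.4 and 14.5 labelled day 6 and 37.7, 34.7 and 37.9 labelled day 9, with no overlap between these groups. GDAP1 rose at labelled day 3 (0.47 ± 0.10, adjusted p = 0.0051), fell at day 6 (−0.65 ± 0.10, adjusted p = 0.00013) and rose at day 9 (0.65 ± 0.10, adjusted p = 3.2e-05). Parental GDAP1 fell to 7.49, 6.53 and 7.14 CPM without doxycycline, the lowest of all libraries, against 23.3, 22.8 and 22.2 with it (−1.69 ± 0.11, adjusted p = 8.6e-09). With doxycycline the lines did not differ by the test, at 23.5 ± 3.69 CPM in the SARS2 line and 22.8 ± 0.581 in the parental line (0.04 ± 0.10, adjusted p = 0.82). From high to low, the group means ran labelled day 9, labelled day 3, doxycycline, parental with doxycycline, labelled day 6 and parental without doxycycline, and only the doxycycline groups of the 2 lines overlapped.

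NEAT1 stood high in the 2 groups in which GDAP1 and MTFP1 had their lowest means. MTFP1 in parental cells without doxycycline (19.8 to 32.4 CPM) overlapped that in the SARS2 line with doxycycline (30.8 to 36.8 CPM). The log2 change of NEAT1 was 1.25 at labelled day 6, −1.24 at labelled day 9 and 1.89 in the parental line. Of the 4 neuronal marker genes, TUBB3 and SYP fell at labelled day 6 (−0.81 and −0.45) and in parental cells without doxycycline (−1.17 and −0.64). SNAP25 (−0.25 and 0.51) and RBFOX3 (0.76 and 0.98) did not pass the test in either. The sum of the 4, nearly all TUBB3, was 63.1 to 67.3 CPM labelled day 6 and 105.8 to 120.1 with doxycycline, and 47.3 to 57.6 CPM in the parental line without doxycycline and 113.5 to 117.9 with it. At labelled day 9, where GDAP1 was highest, the sum was 109.5 to 120.6 CPM, SYP rose (1.22), RBFOX3 fell (−2.24) and the other two did not pass the test. RBFOX3, the marker of mature neurons among them, reached at most 1.37 CPM. The epithelial sum was 55.5 to 63.1 CPM labelled day 9 and 32.6 to 37.0 with doxycycline, and of its genes only KRT18 rose (0.81). The mesenchymal sum was 791.6 to 1036 CPM labelled day 9 and 637 to 709.7 with doxycycline. Within that list VIM rose (0.44), ACTA2 (−0.65) and COL1A1 (−0.42) fell, FN1 and PDGFRB did not pass the test, and COL1A2 was too low to test. The part of these in the changes of the 10 genes was not tested. In bulk RNA, fewer cells of a kind and less RNA per cell cannot be told apart.

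**Figure D3:**
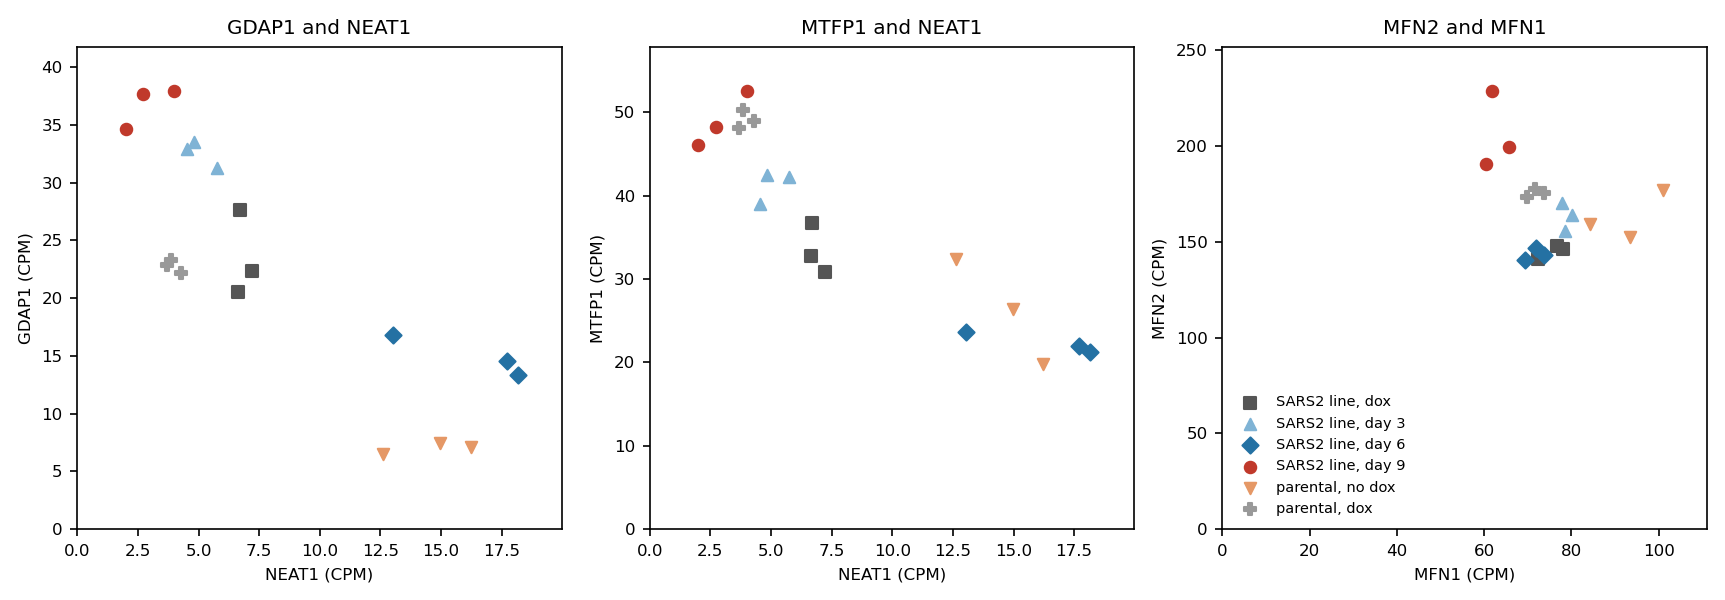
CPM per library for GDAP1 against NEAT1, MTFP1 against NEAT1 and MFN2 against MFN1, coloured by group (18 libraries). Libraries labelled day 6 and parental libraries without doxycycline hold the highest NEAT1 and low GDAP1 and MTFP1, and libraries labelled day 9 lie alone at high MFN2 with low MFN1.

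The genes whose log2 CPM ran most like that of GDAP1 over the 18 libraries were PLEKHG2 (Pearson's r = 0.98), ADPGK (0.98), LOC728688 (0.97), ODC1 (0.97) and ACAA1 (0.97). These r values describe 6 groups that share lines and treatments. ODC1, the first enzyme of polyamine synthesis, averaged 437.7 CPM with doxycycline, 528 labelled day 3, 295 labelled day 6 and 713 labelled day 9, and 197 CPM in the parental line without doxycycline and 429.5 with it. Among the 45 pairs of the 10 genes, r was 0.89 for MFN2 with MIEF1, 0.83 for MFN1 with DNM1L, 0.74 for MTFP1 with GDAP1, −0.38 for MFN1 with MFN2 and −0.81 for DNM1L with GDAP1.

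Between successive labels, day 6 against day 3 called 4 of the 10, all lower, where 42.7% of all genes were called: GDAP1 (−1.13 ± 0.10, adjusted p = 1.7e-07), MTFP1 (−0.89 ± 0.12, adjusted p = 1.1e-05), MIEF1 (−0.25) and MFN2 (−0.19). MFN2 no longer passed without any 1 of 4 libraries (replicate 2 or 3 labelled day 6 or day 3) and with library sizes alone (−0.12). Day 9 against day 6 called 8, where 58.8% of all genes were called. GDAP1 (1.30 ± 0.10, adjusted p = 4.1e-09), MTFP1 (1.14 ± 0.12, adjusted p = 1.7e-07), MIEF1 (0.54), MFN2 (0.52) and FIS1 (0.28) rose. OPA1 (−0.32), DNM1L (−0.26) and MFN1 (−0.19) fell. Of these, OPA1 was −0.11 and not called with the length trend removed, and −0.21 without replicate 2 labelled day 9. FIS1 was 0.15 and not called with library sizes alone, and MFN1 was not called with no filter on low counts (−0.18) or without replicate 2 labelled day 6 (−0.16). With library sizes alone DNM1L was −0.39 and MFN1 −0.32, and with the length trend removed DNM1L was −0.17 and FIS1 0.18, all called.

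With doxycycline in both, the SARS2 line and the parental line differed in 3 of the 10 (MFN2, MIEF1 and MTFP1, all lower in the SARS2 line), where 19.3% of all genes were called. The changes of the 2 lines without against with doxycycline were also set against each other, as the change in the SARS2 line minus that in the parental line. For labelled day 3 this called 6 of the 10 (39.5% of all genes), for day 6 2 of the 10 (12.6%) and for day 9 7 of the 10 (51.7%). The 3 differences share the parental libraries, and the time the parental line spent without doxycycline is not given. MFN1 and GDAP1 were called in all 3: MFN1 by −0.31 ± 0.09, adjusted p = 0.0095, by −0.45 ± 0.09, adjusted p = 0.0038 and by −0.65 ± 0.09, adjusted p = 7.7e-06 for labelled days 3, 6 and 9, and GDAP1 by 2.16 ± 0.15, adjusted p = 1.6e-08, by 1.04 ± 0.14, adjusted p = 0.00034 and by 2.34 ± 0.15, adjusted p = 1.2e-09. At labelled day 6 GDAP1 fell in both lines, less in the SARS2 line (−0.65) than in the parental line (−1.69). MFN1 passed the test in the SARS2 line only at labelled day 9 (−0.27), and rose in the parental line (0.37).

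Genes around the machinery were described by 7 lists (74 genes). Over all genes 6.50% rose and 6.87% fell at labelled day 3, 14% and 14% at day 6, 22.6% and 23.8% at day 9, and 21.0% and 18.4% in the parental line without doxycycline. At labelled day 3 few list genes were called: 1 of the OPA1 protease list, 2 of the modifiers, 1 of the actin and endoplasmic reticulum list, 5 of the other factors, 2 of MICOS, 1 of transport and 2 of mitophagy. The transport gene was RHOT1 (−0.40, adjusted p = 0.0020), and MIGA2 was among the other factors (0.31, adjusted p = 0.0064). Single libraries moved these counts: leaving out any 1 of the 6 libraries left 0 or 1 of the modifiers and of MICOS called. Without replicate 3 labelled day 3 the count was 0 for the protease list and 1 for the other factors, which had 2 called without replicate 1 or 2 with doxycycline or replicate 2 labelled day 3 and 3 without replicate 1 labelled day 3. The actin and endoplasmic reticulum count was 2 without replicate 3 with doxycycline. With only the compared groups in the model, up to 8 of a list were called.

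The proteases that cleave OPA1 and the prohibitin scaffold that restrains them (8 genes) had none higher and 4 lower at labelled day 6 (median log2 change −0.23), among them the prohibitin PHB1 (−0.53, adjusted p = 9.7e-05) and OMA1, the stress-activated OPA1 protease (−0.44, adjusted p = 0.0012). Labelled day 9 had 5 higher and 1 lower (median 0.21). There PHB1 rose (0.54, adjusted p = 2.4e-05), as did SPG7, a subunit of the inner membrane m-AAA protease (0.54, adjusted p = 8.9e-07), and OMA1 fell (−0.40, adjusted p = 0.0011). The parental line without doxycycline had none higher and 5 lower (median −0.18), among them PHB2 (−0.80, adjusted p = 4.5e-06). That count was 3 without replicate 3 without doxycycline, or without replicate 1 or 2 with it.

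The MICOS complex and its bridge to the outer membrane, which hold the cristae junctions (11 genes), had none higher and 4 lower at labelled day 6 (median −0.15), and 4 higher and 3 lower at day 9 (median 0.03). MICOS13 (−0.69, adjusted p = 3.3e-05) and MICOS10 (−0.58, adjusted p = 0.00031) fell at labelled day 6. DNAJC11 rose at labelled day 9 (0.74, adjusted p = 1.2e-05). Parental cells without doxycycline had 1 higher and 4 lower (median −0.02), among them CHCHD3 (−0.46, adjusted p = 0.0029). With the length trend removed the list had 4 called at labelled day 9 and 3 in the parental line.

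Enzymes that modify DNM1L or the mitofusins (14 genes) had 1 higher, the autophagy kinase ULK1 (0.58, adjusted p = 0.00016), and 3 lower at labelled day 6 (median 0.03). Those 4 calls were 1 or 2 without any 1 of the doxycycline libraries or without replicate 2 or 3 labelled day 6, and 2 with the replicate block or with no filter on low counts. Labelled day 9 had 5 higher and 4 lower (median −0.05). PPP3CA, the calcineurin subunit that dephosphorylates DNM1L, fell (−0.75, adjusted p = 4.1e-07), and MUL1, an outer membrane E3 ligase, rose (0.61, adjusted p = 4.3e-06). With the length trend removed the PPP3CA change was −0.40 and still passed. Parental cells without doxycycline had 5 higher and 6 lower (median −0.02), including a fall of the phosphatase PGAM5 (−0.78, adjusted p = 4.2e-06).

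Actin, dynamin and endoplasmic reticulum factors of division (11 genes) had 2 higher and 2 lower at labelled day 6 (median 0.15). These 4 calls were 2 without replicate 1 or 3 with doxycycline or without replicate 2 or 3 labelled day 6, and 8 with library sizes alone. Labelled day 9 had 3 higher and 6 lower (median −0.27). BCAP31, an endoplasmic reticulum protein, fell at labelled day 6 (−0.34, adjusted p = 0.0025), rose at day 9 (0.55, adjusted p = 8.5e-06) and fell in parental cells without doxycycline (−0.40, adjusted p = 0.00036). In those cells 4 of the list were higher and 2 lower (median −0.02).

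Other reported fission or fusion factors (12 genes) had 2 higher and 2 lower at labelled day 6 (median −0.12). At labelled day 9 all 12 were called, 8 higher and 4 lower (median 0.30). MIGA2, a mitoguardin that promotes fusion, rose at labelled day 6 (0.43, adjusted p = 0.00014) and day 9 (0.60, adjusted p = 8.9e-07), and its relative MIGA1 fell at day 9 (−0.46, adjusted p = 5.0e-05). MTFR1, a promoter of division, fell at labelled day 9 (−0.53, adjusted p = 1.4e-06). One of the 8, GDAP1L1, a relative of GDAP1, held 16, 46 and 21 counts labelled day 9 and 0, 0 and 2 counts with doxycycline. The parental line without doxycycline had 2 higher and 6 lower (median −0.14), among them LETM1 (−0.49, adjusted p = 4.8e-06), an inner membrane ion exchanger.

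Adaptors and motors that carry mitochondria along microtubules (8 genes) had 1 higher and 1 lower, TRAK2, at labelled day 6 (−0.40, adjusted p = 0.0042). Those 2 calls were 1 without replicate 3 with doxycycline or replicate 2 labelled day 6, and 4 without replicate 1 labelled day 6 or with library sizes alone. Labelled day 9 had 1 higher and 3 lower (median 0.00). The outer membrane GTPase RHOT1 (−0.66, adjusted p = 8.8e-07) and the motor adaptor TRAK1 (−0.57, adjusted p = 1.2e-07) fell, and RHOT2 rose (0.46, adjusted p = 0.00013). With the length trend removed the TRAK1 change was −0.31 and still passed. Without doxycycline, parental cells had 3 higher and 1 lower, RHOT2 (−0.47, adjusted p = 0.00016).

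Mitophagy receptors and the PINK1 pathway (10 genes) had 2 higher and 2 lower at labelled day 6, including a fall of the receptor FUNDC1 (−0.45, adjusted p = 0.00015), and 1 higher and 5 lower at day 9 (median −0.25). There were 5 higher and 2 lower in the parental line without doxycycline (median 0.42). The receptor BNIP3L fell at labelled days 3 (−0.65, adjusted p = 0.0010) and 9 (−0.91, adjusted p = 1.8e-06). Parental cells had more BNIP3L without doxycycline (0.82, adjusted p = 1.2e-05). SQSTM1, the cargo adaptor p62, was the only one higher at labelled day 9 (0.85, adjusted p = 9.5e-09).

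**Figure D4:**
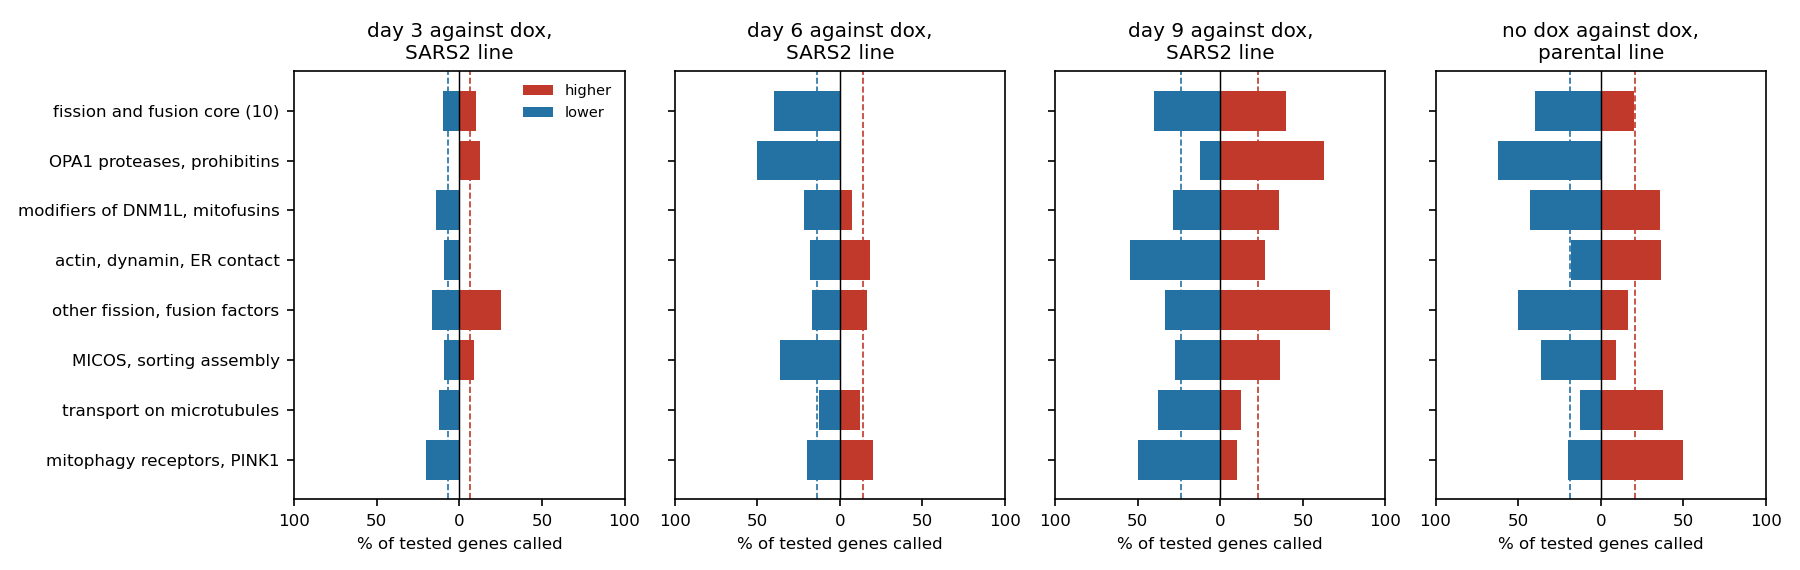
Share of the tested genes of each list that were called higher (right) or lower (left) in libraries labelled day 3, 6 and 9 and in the parental line without doxycycline, in percent; dashed lines mark the share over all genes tested. The prohibitin and OPA1 protease list lies to the lower side at day 6 and in the parental line and to the higher side at day 9.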

How the data were processed

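Whole-number read counts per gene, not normalized, were deposited by the authors in 3 tables. Build GRCh38, HISAT2, cutadapt 2.3, featureCounts (Subread), SAMtools and DESeq2 appear in the submitters' processing notes, without stated roles. Not given in the sources used here are the annotation release and strand setting. Of the genes, 16 were split over lines and rejoined, and 6 libraries present in 2 tables had identical values and were used a single time. Averaged over genes, replicates differed by more than counting noise (mean chi-square per gene 4.97 to 95.0), and the 37 mitochondrial chromosome genes held 0 counts.

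Counts were tested with edgeR 4.0.16 (R 4.3.3) on 21615 genes passing filterByExpr, scaled with TMM. The quasi-likelihood model had 1 mean per group over all 18 libraries and 12 residual degrees of freedom. Adjusted p is Benjamini-Hochberg over all genes, called under 0.05, in 10 comparisons. CPM and ratios per kb of exon were computed here. Start regions are RefSeq's, of which 9 of the 10 genes were matched and searched for 7 motifs. The fitting code was tested on simulated counts with known changes at day 6, with 1 spread for all genes (CV 0.122). It recovered 40 of 100 genes changed 1.5-fold and 83 of 100 changed 2-fold, with 9 false calls. Smaller changes were not simulated.

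The genes and lists were chosen with earlier results of these data known. All 10 genes, SARS2, NEAT1, up to 4 called genes of smallest p per list and comparison, and the 5 genes most like the gene of widest range are named by rule; GDAP1L1 and the markers are named besides, and some list genes are not reported here. Alternatives were DESeq2 1.42.0, RLE or library-size scaling, no filter, only the compared groups, a length and span trend, a replicate block and 1 library left out.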

Additional observations from a re-analysis of the deposited data

Results flagged for a closer look

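Each value here is a difference of changes: the log2 change of the SARS2 line, for libraries labelled day 3, 6 or 9 against doxycycline, minus that of the parental line without against with doxycycline. A listed gene passed edgeR's test of that difference at an adjusted p under 0.05. Such a difference can come from the change in either line, and the times without doxycycline are not known to match. For labelled day 3 the difference was −0.31 for MFN1, 0.28 for MFN2, −0.32 for DNM1L, 0.30 for MIEF1, 1.21 for MTFP1 and 2.16 for GDAP1. The MFN2 difference was lost without any 1 of 5 libraries (0.25 to 0.27), and that of DNM1L with the length trend removed (−0.22). For labelled day 6 the difference was −0.45 for MFN1 and 1.04 for GDAP1. There GDAP1 fell in both lines, less in the SARS2 line (−0.65) than in the parental line (−1.69). MFN1 did not pass the test in the SARS2 line at labelled day 6 (−0.08) and rose in the parental line (0.37). For labelled day 9 the difference was −0.65 for MFN1, 0.61 for MFN2, −0.39 for OPA1, −0.47 for DNM1L, 0.59 for MIEF1, 1.46 for MTFP1 and 2.34 for GDAP1. The OPA1 difference was lost with the length trend removed (−0.15). All 3 sets share the parental libraries and the SARS2 line libraries with doxycycline, and the parental time without doxycycline is not given.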

How the results depend on the processing

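Of 1480 recomputed values of the 10 genes, 1428 kept their direction and side of the threshold, 27 lost the call, 25 gained it and 0 reversed. Of 50 called comparisons, 11 lost the call under at least 1 alternative. No call of the 10 genes changed with DESeq2, with RLE scaling or with the replicate block. The block gave 2, 4, 8, 4, 8, 6, 3, 6, 2 and 7 genes called in the 10 comparisons, the same counts as without it. Among the lists it moved 4 counts by over 1.5 times: the modifiers to 1 and MICOS to 1 (2 each without it) and mitophagy to 4 (2 without it) at labelled day 3, and the modifiers to 2 (4 without it) at day 6. Same-numbered replicates of different groups did not deviate together (mean r = −0.003 over 45 pairs, 3 of 18 libraries best with their own number), so the numbers were not taken to pair samples. At labelled day 3, 4 of the 10 were called with only the compared groups in the model, against 2 with all groups. With 1 library left out, the count of the 10 genes called was 1 to 2 at labelled day 3, 3 to 4 at day 6, 7 to 9 at day 9 and 5 to 7 in the parental line. Over all genes, labelled day 3 called 2889, and 1088 without its replicate 3, and day 6 called 6070, and 3834 without doxycycline replicate 3. The lines differed in 4171 genes with doxycycline, and in 2593 without SARS2 line replicate 1, and the day 6 difference of changes called 2729, and 1625 without replicate 3 labelled day 6. With only the compared groups, labelled day 3 called 6536 and the lines 7336. Of 3847 recomputed values of the list genes, 3529 kept their direction and side of the threshold, 199 lost the call, 118 gained it and 1 reversed: CHCHD6 at labelled day 9 was −0.43, and 0.0105 with the length trend removed. The cause was not tested. With 3 libraries per group, a gene that missed the threshold is not shown to be level.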
